A study of Mus musculus with 6 samples.

Results

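Skeletal muscle genes were followed in cells digested from chemically induced mouse skin tumours. The set of 39 genes was listed by name, with earlier results of these data known. These genes encode proteins of the contractile filaments, the Z-disc, the calcium stores and the energy supply of striated muscle fibres. Of these, 38 had a probe set that the platform annotation ties to that gene symbol and no other, out of 18193 genes measured in this way, and Xirp2 was not matched. Where a gene had several such probe sets, the one with the highest mean over the 6 arrays stood for it.

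The tumours came from wild-type (WT) mice and from mice deficient in epidermal fatty acid binding protein (E-FABP), labelled EKO. All of these mice were given the carcinogen DMBA to start tumours in the skin and the phorbol ester TPA to promote them, over 5 months. Total RNA of 3 WT and 3 EKO samples was hybridised to 1 Affymetrix array each, with replicates that the titles call biological. The tumours were digested to single cells, which the labels call keratinocytes in one place and tumour cells in another. The sources used here give no strain, age or sex and do not say how the tumours were cut from the skin. The comparison of EKO with WT asks how loss of E-FABP alters such tumours. The muscle set asks, besides, how much muscle transcript each sample carried.

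A muscle fibre contracts when calcium released from the sarcoplasmic reticulum binds troponin on the thin actin filaments and frees them for the myosin of the thick filaments. Fast and slow fibres build the same sarcomere from different isoforms, so myosin heavy chains and troponins tell them apart. Mouse skin lies on a thin sheet of striated muscle, the panniculus carnosus, which is built mostly of fast fibres. Epidermal keratinocytes build their cytoskeleton from keratins and do not form sarcomeres.

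Values are log2 signals after RMA, a normalization that equalises the arrays, whose medians lay between 5.41 and 5.43 with quartiles near 3.9 and 7.5. Across probe sets, any pair of arrays had a correlation of 0.988 to 0.994. Where 3 values are given for a genotype, they stand for its replicates 1, 2 and 3 in that order. Fabp5, which encodes E-FABP, read from 14.80 to 14.94 in the WT and from 7.98 to 8.30 in the EKO arrays, so the arrays matched their labels. Of 10 keratinocyte markers 9 were measured, all above the upper quartile of each array, and Krt10 read from 14.17 to 14.51. The data carry no detection calls, and RMA narrows differences among low values, so a value below an array's median is not shown to be above background. Signals of different probe sets are not compared as transcript levels. RNA was pooled over the cells of a sample, so fewer muscle cells or fragments and less muscle RNA per cell cannot be told apart.

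Muscle transcripts varied far more between the samples than most genes did, and the WT and EKO values overlapped. The sample labelled WT replicate 1 stood apart from the other 5. It held the highest value for 36 of the 38 genes, where WT replicate 1 was the highest array for 21.3% of all genes tested. In 30 of the 38 it lay more than 1 log2 unit above each other array, which 0.324% of all genes did. WT replicate 3 and EKO replicate 1 came next. These and WT replicate 1 were the 3 highest arrays for 30 of the 38 genes, against 4.78% of all genes. With WT replicate 1 set aside, WT replicate 3 and EKO replicate 1 were still the 2 highest of the remaining 5 arrays for 31 genes, against 11.2% of all genes. The set was chosen with earlier results of these data known, so these counts are not independent evidence. The lowest value lay in WT replicate 2 for 14 genes, in EKO replicate 3 for 13, in EKO replicate 2 for 9 and in EKO replicate 1 for 2.

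A score was set for each array as the mean over the 38 genes of the difference from each gene's mean over the 6 arrays. It was 1.66, -0.72 and 0.24 in the WT and 0.05, -0.50 and -0.73 in the EKO replicates. On the linear scale the score of WT replicate 1 was 5.24 times that of EKO replicate 3, the lowest, while WT replicate 2 was 1.01 times it. The WT samples therefore spanned the highest and nearly the lowest score, and the EKO samples lay inside that span apart from EKO replicate 3, which lay 0.01 below WT replicate 2. Summed on the linear scale, the signal of the 38 genes ran from 2608 to 19223 in WT and from 2722 to 5498 in EKO arrays. The number of these genes above the upper quartile of the array was 19, 2 and 10 in WT and 8, 4 and 1 in the EKO replicates. The median SD of a muscle gene was 1.24 among WT and 0.387 among EKO samples, where the median over all genes was 0.1225 and 0.133.

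**Figure D1:**
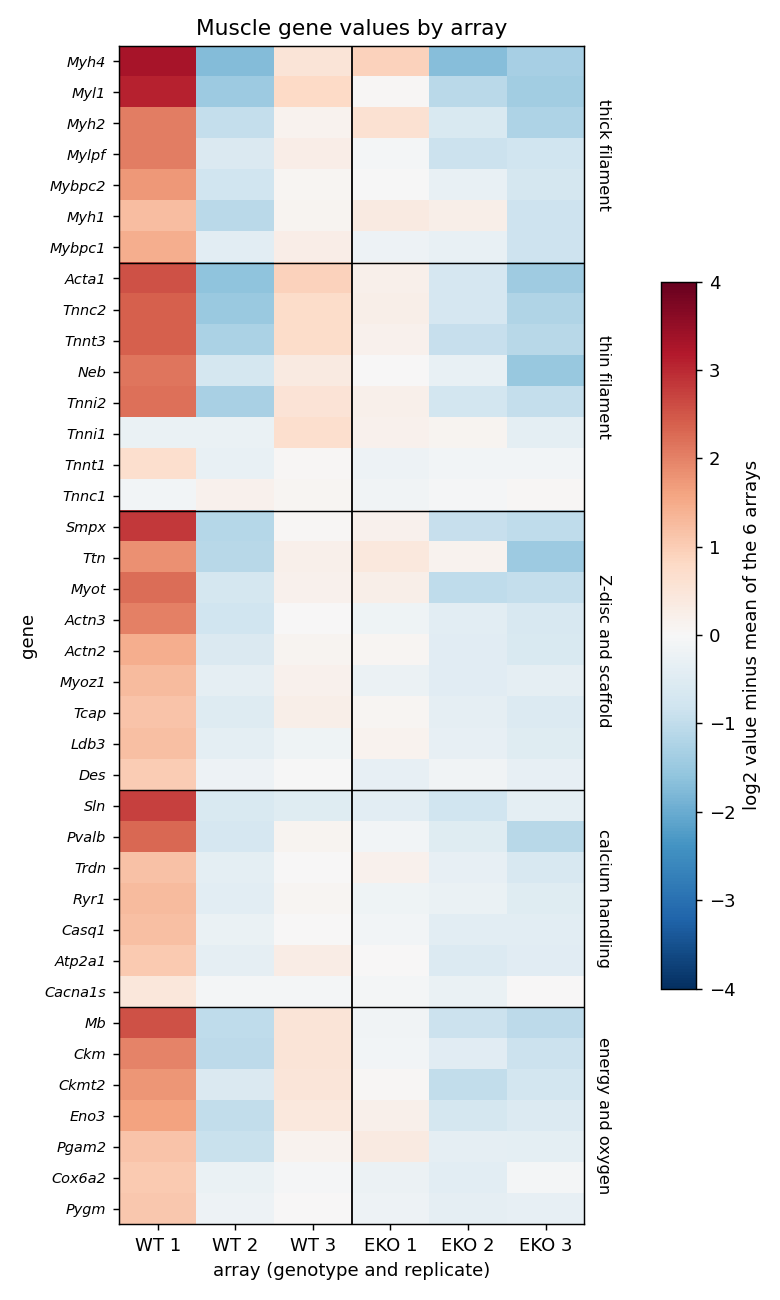
Each row is 1 of the 38 measured muscle genes, ordered by role, and each column 1 array; colour gives the log2 value minus the gene's mean over the 6 arrays. The column of WT 1 is the highest in 36 rows, WT 3 and EKO 1 are often above 0, and WT 2 resembles EKO 2 and EKO 3.

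The DNA just upstream of the start is shown for Acta1, the actin of skeletal muscle, and for Myh4, which had the widest measured range of the set. It is also shown for Tnni1, the slow troponin I, which had a different pattern. These genes were picked with their values known and do not stand for the whole set. The sequences are the 250 bases before the annotated start, from RefSeq on build GRCm38.p6, written 5′ to 3′ on the strand of the gene. They lie at chr8:123894776-123895025 on the minus strand for Acta1, chr11:67237562-67237811 on the plus strand for Myh4 and chr1:135799171-135799420 on the plus strand for the upstream one of the Tnni1 starts. Capitals mark matches to CAGCTG, an E-box of the kind bound by myogenic factors such as MyoD, to the CArG box bound by serum response factor, to TATAAA and to the MEF2 site.
Acta1: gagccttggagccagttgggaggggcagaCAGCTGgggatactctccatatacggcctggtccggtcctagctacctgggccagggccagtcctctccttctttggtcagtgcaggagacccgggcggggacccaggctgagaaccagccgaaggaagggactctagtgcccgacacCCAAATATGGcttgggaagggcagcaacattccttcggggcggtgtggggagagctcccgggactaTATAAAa
Myh4: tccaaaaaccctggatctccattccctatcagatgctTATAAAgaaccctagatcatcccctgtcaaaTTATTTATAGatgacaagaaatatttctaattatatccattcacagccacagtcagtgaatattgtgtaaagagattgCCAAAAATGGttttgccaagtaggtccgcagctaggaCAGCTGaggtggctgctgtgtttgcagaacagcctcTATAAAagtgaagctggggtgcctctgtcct
Tnni1: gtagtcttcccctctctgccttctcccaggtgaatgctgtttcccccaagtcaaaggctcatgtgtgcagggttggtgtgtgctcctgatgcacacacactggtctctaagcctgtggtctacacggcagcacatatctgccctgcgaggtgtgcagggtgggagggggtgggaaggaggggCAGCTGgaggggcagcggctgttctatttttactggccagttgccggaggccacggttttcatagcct

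All motifs were searched on both strands, and CAGCTG also counts as a CANNTG match. Promoters were on hand for 28 of the 38 genes, 33 promoters in all. CAGCTG was found in 17 of the 33, or 51.5%, and in 13.0% of 32851 promoters of the same length across the genome. CANNTG, the general E-box, was found in 78.8% and 66.2%, the MEF2 site in 15.2% and 2.92%, the CArG box in 12.1% and 1.47%, and TATAAA in 15.2% and 12.4%. Promoters of Mb, Tnni1 and Ldb3 overlap, so the same site can count more than once. By gene, CAGCTG was found in 15 of the 28, the MEF2 site in 5 and the CArG box in 3. In the printed sequences Acta1 held a CArG box beginning 73 bases before the start and a CAGCTG at 221, and Myh4 a CArG box at 104, a MEF2 site at 182 and a CAGCTG at 67. Tnni1 held a CAGCTG at 68 and no match to the CArG box, the MEF2 site or TATAAA in this window. Tnnc2, which had the same order of arrays as Acta1, held no match to CAGCTG, the CArG box, the MEF2 site or TATAAA. Whether the matches bear on the course of a gene over the arrays was not tested. Such matches describe the letters only, and no binding was measured.

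In the thick filament all 7 genes were highest in WT replicate 1. Myh4, the myosin heavy chain of the fastest (IIb) fibres, read 8.73, 3.71 and 5.96 in WT and 6.36, 3.73 and 4.11 in EKO. The measured range was 5.03, but the values of WT replicate 2 and EKO replicate 2 were under the lower quartile of the array and are not shown to be above background, so its size is uncertain. Myl1, an essential light chain of fast fibres, read 10.63, 6.09 and 8.35 in WT and 7.59, 6.47 and 6.17 in EKO. Mylpf, the fast regulatory light chain, read 10.28, 7.64 and 8.50 against 8.15, 7.37 and 7.41. For these 3 genes WT replicate 2 lay among the EKO values or below them, so the groups overlapped. Myh2, the heavy chain of IIa fibres, read 7.26, 4.25 and 5.35 in WT and 5.80, 4.61 and 3.97 in EKO. The myosin binding proteins Mybpc1 and Mybpc2, named for slow and fast muscle although the former is also made in fast fibres, ran from 6.11 to 8.41 and from 3.65 to 6.21.

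Myh1, the heavy chain of IIx fibres, departed from this order. It read 11.45, 9.13 and 10.33 in WT and 10.57, 10.45 and 9.40 in EKO, with EKO replicate 2 close to EKO replicate 1. Another Myh1 probe set gave 10.31 in EKO replicate 2, and the remaining one stayed between 4.24 and 4.65 on all arrays. Ttn, the giant spring protein titin, was likewise high in EKO replicate 2, at 7.60 beside 7.88 and 6.0 in EKO replicates 1 and 3 and 9.28, 6.34 and 7.65 in WT. Of the other Ttn probe sets, one kept this at 5.98, 5.89 and 5.29 in EKO and another did not at 6.32, 5.60 and 5.30. Myosin heavy chain genes lie in a cluster and are alike in sequence, and whether a probe set reads more than 1 of them was not tested.

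Among thin filament genes the actin, nebulin and the fast troponins ranged most widely. Acta1, skeletal alpha-actin, read 11.42, 7.28 and 9.81 in WT and 9.09, 8.22 and 7.44 in EKO, a 17.6-fold span. Neb, nebulin, which sets the length of the thin filament, read 7.40, 4.55 and 5.62 in WT and 5.28, 4.98 and 3.74 in EKO. Its values in WT replicate 2 and all EKO replicates lay below the array medians and are not shown to be above background. The size of its range and the order among those samples are therefore uncertain. In both genes WT replicates 1 and 3 lay above all EKO values and WT replicate 2 below EKO replicates 1 and 2. The fast troponins, which couple calcium to contraction, followed the same course. Tnnt3, fast troponin T, read 9.39, 5.73 and 7.73 in WT and 7.16, 6.08 and 5.91 in EKO. Tnni2, fast troponin I, read 9.74, 6.26 and 8.10 against 7.75, 6.82 and 6.61. Tnnc2, fast troponin C, read 10.76, 6.90 and 9.13 against 8.60, 7.72 and 7.16. All 3 had the order WT replicate 1, WT replicate 3, EKO replicate 1, EKO replicate 2, EKO replicate 3, WT replicate 2.

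The slow troponins ranged less than the fast ones, by 0.96 for Tnnt1, 1.07 for Tnni1 and 0.32 for Tnnc1, where the median range over all genes was 0.38. Tnnt1, slow troponin T, read 4.46, 3.50 and 3.85 in WT and 3.58, 3.67 and 3.69 in EKO, below the lower quartile on 5 arrays, with the same 2 highest samples and the same lowest one as the fast troponins. Tnnc1, the troponin C of slow and cardiac muscle, read 4.42, 4.70 and 4.62 against 4.38, 4.48 and 4.58, below every array's median. Neither is shown to be above background, so their small ranges are no measure of the slow isoforms. Tnni1, slow troponin I, lay above the median on all arrays and read 5.79, 5.78 and 6.73 in WT and 6.23, 6.18 and 5.66 in EKO. Its highest value was that of WT replicate 3, and WT replicate 1 differed from WT replicate 2 by only 0.01.

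**Figure D2:**
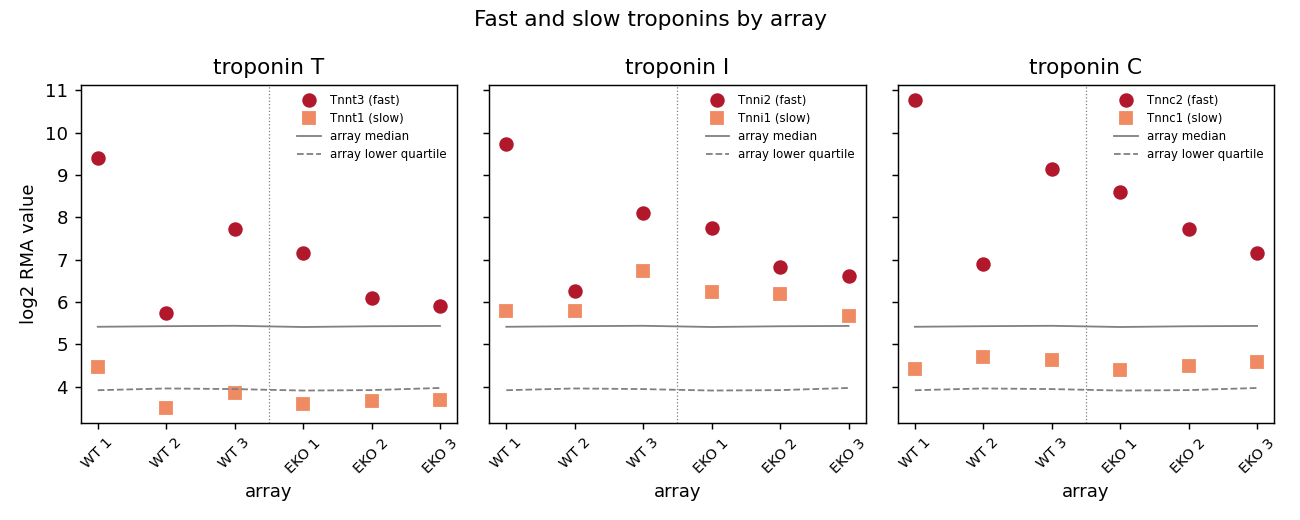
Log2 values of the fast (circles) and slow (squares) forms of troponin T, I and C in each array, with the array median (solid line) and lower quartile (dashed line). The fast forms span from 3.48 to 3.86 log2 units over the arrays and the slow forms from 0.32 to 1.07. Tnnt1 and Tnnc1 are not shown to be above background, and heights of different genes are not comparable as transcript levels.

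The list of 13 fast fibre genes had scores of 2.08, -0.98 and 0.34 in WT and 0.15, -0.65 and -0.94 in EKO. The 4 slow fibre genes (Tnnt1, Tnni1, Tnnc1 and Mybpc1) had scores of 0.44, -0.20 and 0.27 in WT and -0.10, -0.09 and -0.32 in EKO. The fast score minus the slow score was 1.64, -0.78 and 0.07 in the WT and 0.25, -0.56 and -0.61 in the EKO replicates. Its mean was 0.31 ± 1.23 in WT and -0.31 ± 0.488 in EKO samples (SD, n = 3 each), a difference of -0.62 that is smaller than the SD among the WT samples. Without WT replicate 1 the difference was 0.05, so its sign rests on that sample. All 13 fast genes ranged over at least 1.60 log2 units, with a median range of 3.29, while the slow genes had a median range of 1.01. Mybpc1 alone of the slow list ranged over more than 1.07, by 2.30, and it is also made in fast fibres. Tnnt1 and Tnnc1 are not shown to be above background. The slow score is therefore no clear measure of slow fibres, and its difference from the fast score no clear contrast of fibre types.

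The 6 slow fibre genes outside the set had a median range of 0.39, close to the 0.38 over all genes. Myh7, the slow myosin heavy chain, ran from 4.97 to 5.34, Myl2, the slow regulatory light chain, from 3.19 to 3.41, and Myl3, a slow light chain, from 5.50 to 5.91. Casq2, the slow and cardiac calsequestrin, ran from 6.28 to 6.85 with its highest value in EKO replicate 1. Myoz2, a Z-disc protein of slow fibres, was the exception, at 6.46 in WT replicate 1 and from 5.06 to 5.29 elsewhere. Over these 6 genes, with Myh7b, the score lay between -0.12 and 0.15; Myl2 and Myh7b were named after their values were seen. Of the 6, 3 lay below the median of every array, where RMA narrows differences, while Myl3 and Casq2 lay above it on all arrays. The part of low signal in the small ranges was not tested.

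Z-disc and scaffold genes were highest in WT replicate 1 in 9 of 9 cases. Smpx, a small protein of the costamere, read 8.18, 4.21 and 5.39 in WT and 5.53, 4.42 and 4.32 in EKO. Myot, the Z-disc protein myotilin, read 7.61, 4.68 and 5.55 against 5.63, 4.37 and 4.42. In both, EKO replicate 1 lay above WT replicate 3, and WT replicate 2, EKO replicate 2 and EKO replicate 3 were the lowest. The values of these 3 lowest samples, and that of WT replicate 3 for Smpx, lay below the array medians. They are not shown to be above background, so the order among them is uncertain. Actn3, the alpha-actinin of fast fibres, read 7.70, 4.87 and 5.70 in WT and 5.50, 5.26 and 5.04 in EKO. Actn2, its relative in all skeletal and cardiac fibres, read 7.15, 5.13 and 5.81 against 5.77, 5.23 and 5.08. Myoz1, Tcap and Ldb3, which anchor the Z-disc, ranged over 1.71, 1.69 and 1.68. Des, the intermediate filament desmin, which smooth muscle also makes, had a smaller range of 1.33, from 6.73 in EKO replicate 1 to 8.06 in WT replicate 1.

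Calcium handling genes were highest in WT replicate 1 in 7 of 7 cases. Sln, sarcolipin, a small inhibitor of the calcium pump, read 7.45, 4.11 and 4.25 in WT and 4.29, 3.93 and 4.33 in EKO. The 5 values other than that of WT replicate 1 lay below the array medians and are not shown to be above background, so the size of the step and the order of these samples cannot be read. Pvalb, parvalbumin, the soluble calcium buffer of fast fibres, read 8.64, 5.68 and 6.48 in WT and 6.24, 5.86 and 5.25 in EKO. Atp2a1, the calcium pump SERCA1, read 7.67, 6.25 and 6.90 against 6.61, 6.06 and 6.14. Casq1, the calcium store protein of fast fibres, read 7.0, 5.54 and 5.81 against 5.69, 5.38 and 5.36. The release channel Ryr1 ran from 4.37 to 6.11 and its partner Trdn, triadin, from 5.44 to 7.24. Cacna1s, the voltage sensor, ran from 3.72 to 4.44, below every array's median, so that its small range says little.

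Genes of energy supply and oxygen storage were highest in WT replicate 1 in 7 of 7 cases. Mb, the oxygen-binding protein myoglobin, read 10.73, 7.16 and 8.69 in WT and 8.04, 7.33 and 7.13 in EKO. Ckm, muscle creatine kinase, read 9.33, 6.32 and 7.86 in WT and 7.23, 6.89 and 6.49 in EKO. Its mitochondrial partner Ckmt2 read 6.47, 4.12 and 5.18 against 4.75, 3.70 and 3.95. These 3 genes placed WT replicate 3 between WT replicate 1 and EKO replicate 1. For Ckmt2, all values but that of WT replicate 1 lay below the array medians and are not shown to be above background. The order of those samples is therefore uncertain for Ckmt2. The glycolytic enzyme Eno3 ran from 5.53 to 8.13, Pgam2, muscle phosphoglycerate mutase, from 5.53 to 7.57, both lowest in WT replicate 2, and Pgam2 was higher in EKO replicate 1 (6.77) than in WT replicate 3 (6.56). Cox6a2, a muscle subunit of cytochrome c oxidase, ran from 6.07 to 7.52, with EKO replicate 3 (6.42) above EKO replicate 1 (6.26). Pygm, muscle glycogen phosphorylase, ran from 3.71 to 5.13, below every array's median, and is not shown to be above background.

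Of the 38 genes, 14 had more than 1 probe set. Other probe sets were flat for several, with a range of 0.27 for Mb, 0.32 for Ckm and 0.36 for Myh4, beside 3.60, 3.01 and 5.03 with the probe set used. That of Mb lay above the median of every array, from 5.48 to 5.75, and its EKO mean was 0.12 higher, against the direction of the probe set used. Second probe sets of Ryr1 and Cox6a2 ranged over 1.80 and 2.25, as wide as or wider than those used (1.74 and 1.45), and were also highest in WT replicate 1.

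Between the genotypes no muscle gene passed the test. The mean of EKO was below that of WT for 38 of 38 genes, where 50% of all genes had a lower EKO mean, and the median log2 difference was -0.71 against 0.00 over all genes. Without WT replicate 1 the EKO mean was lower for 31 of 38, where 48.4% of all genes were. By limma over all 18193 genes 0 of the 38 had an adjusted p under 0.05, and 0.00550% of all genes did, namely Fabp5. At an unadjusted p under 0.05, 0 of the 38 were lower in EKO, where 3.70% of all genes were, and the smallest unadjusted p of a muscle gene was 0.0868. For 0 of the 38 were all EKO values below all WT values, as they were for 6.19% of all genes. The genes share the same 6 samples, so the common sign is not 38 separate observations.

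The log2 differences ran from -1.61 for Myl1 to -0.08 for Tnni1. Myl1 averaged 8.36 ± 2.27 in the WT and 6.74 ± 0.747 in the EKO samples (SD, n = 3 each), a log2 difference of -1.61 (SE 1.04, limma adjusted p = 0.789). Without WT replicate 1 it was -0.48 and without WT replicate 2, the lowest WT sample for this gene, -2.75. Mybpc1 had the smallest adjusted p of the set, 0.726, with a difference of -0.88 (SE 0.444) and -0.37 without WT replicate 1. Mb had a difference of -1.36 (SE 0.808) and -0.42 without WT replicate 1, Acta1 -1.25 (SE 0.975) and -0.30, and Myh4 -1.40 (SE 1.25) and -0.10. Myh1 had -0.17 (SE 0.579), and 0.41 without WT replicate 1. The adjusted p of the 38 genes lay between 0.726 and 0.963. For the score the difference was -0.79, with SDs of 1.20 in WT and 0.399 in EKO, and it was -0.15 without WT replicate 1 and -1.34 without WT replicate 2.

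**Figure D3:**
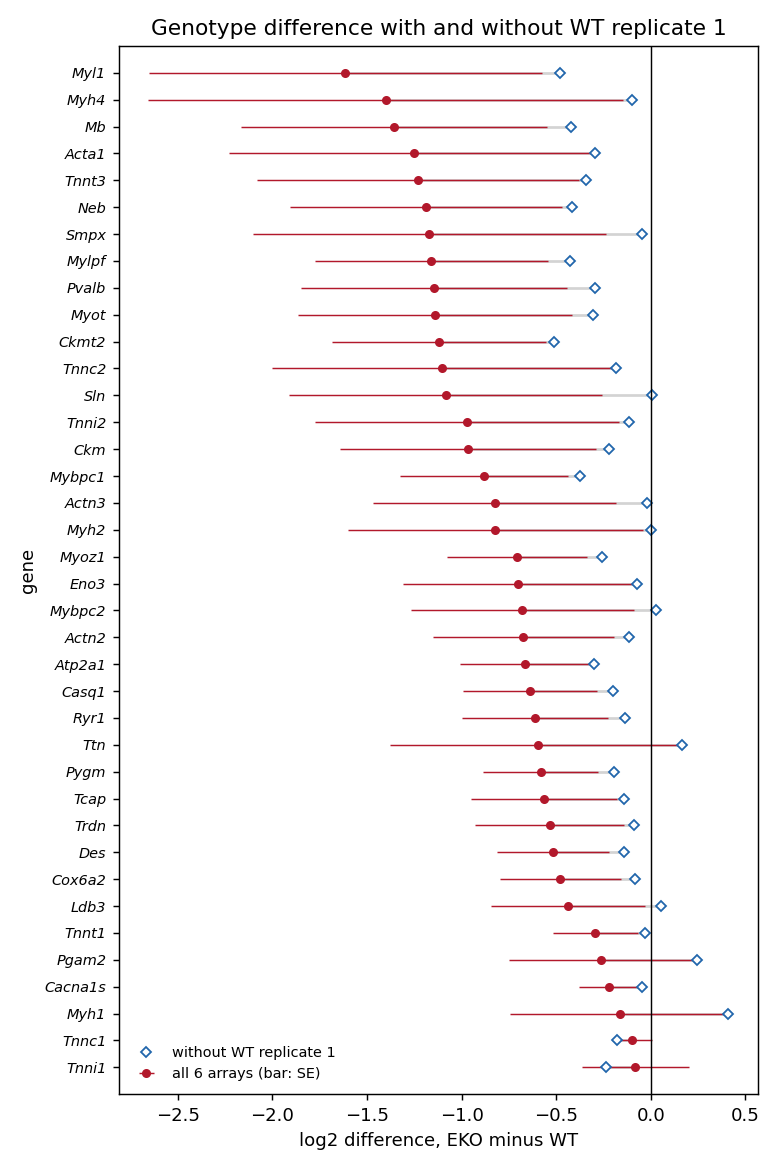
Log2 difference of EKO minus WT for each of the 38 muscle genes with all 6 arrays (filled circles, bars give the standard error of limma) and without WT replicate 1 (open diamonds). With all arrays the 38 circles lie below 0; without WT replicate 1 most diamonds lie close to 0 and 7 lie above it.

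As a list, other genes known from skeletal muscle moved less, with a median range of 0.69 against 2.58 in the muscle set. Of 56 listed, 52 were measured, and 44 of these had a lower EKO mean, with a median difference of -0.19. Their score difference was -0.23, and -0.03 without WT replicate 1. WT replicate 1 was the highest array for 37 of the 52, where it was for 21.3% of all genes. By limma 0 passed over all genes, and 18 of the 52 lay below the median of every array, as did 5708 of all 18193 genes. The 4 with the smallest unadjusted p were Art1 (difference -0.31), an ADP-ribosyltransferase, Capn3 (-0.34), a muscle protease, Ankrd23 (-0.30) and Cav3 (-0.32), the caveolin of muscle. Klhl41, a sarcomere assembly protein named after its values were seen, read 6.32 in WT replicate 1 and 4.25 or less elsewhere. Single genes of this list ranged widely, such as Myom2 over 2.61, Myom1 over 2.18 and Csrp3 over 2.10. These were highest in WT replicate 1 and were also named after their values were seen.

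Most regulators of muscle formation and satellite cell markers were low. Of 14 listed, 13 were measured, 0 passed over all genes and 10 lay below the median of every array. Pax7, the marker of satellite cells, ran from 3.49 to 3.80 and Myf5 from 2.47 to 2.89, below the lower quartile on all arrays. Myod1 ran from 3.58 to 4.29 and Myog, which drives the final step of differentiation, from 4.30 to 4.77. Myf6, the regulator found in mature fibres, read 5.07 in WT replicate 1 and from 3.66 to 3.84 elsewhere. Mef2c, a partner of these factors that many other cells also make, ran from 6.56 to 7.50 with its highest value in WT replicate 1. Embryonic and neonatal myosins, Myh3 and Myh8, stayed below every array's median. Above it on all arrays lay Mef2c, Pax3 (5.86 to 6.07), a regulator also used by other lineages, and Cdh15 (5.42 to 5.75), a cadherin of satellite cells. Pax7, Myf5, Myod1, Myh3, Myh8, Pax3 and Cdh15 were named after their values were seen.

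Across all genes, 59 lay more than 1 log2 unit higher in WT replicate 1 than in each other array. The muscle set gave 30 of these, which is 50.8% of the 59 and 78.9% of the set, and the list of other skeletal muscle genes gave 9. A further 16 stood in no list. Of these, Tmem182, Fhl1, Apobec2, Cmya5, Myhas, Pdk4 and Adssl1 were also among the 10 nearest profiles given next. The others were Cyp2e1 (7.95 in WT replicate 1), Acaa1b (8.95), Saa3 (9.71), Srpk3 (5.28), a kinase of muscle, Pdlim3, Rcan2, Hjv, Ifi27l2a and Tfec. These others were named after their values were seen. The 10 genes outside the muscle lists with 6 values closest to the muscle score, by root mean square distance over the 6 arrays, were Tmem182, Fhl1, Apobec2, Cmya5, Cox7a1, Cox8b, Myhas, Pdk4, Adssl1 and Cdo1, with distances from 0.138 to 0.291. Fhl1, a LIM domain protein, read 9.88, 7.69 and 8.85 in WT and 8.74, 8.04 and 7.84 in EKO. Tmem182 read 7.19, 5.09 and 5.79 against 5.80, 5.32 and 4.77, and none of the 10 passed over all genes. The lists do not hold every muscle gene, so genes outside them, such as Srpk3, can still be genes of muscle.

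Markers of other tissue beneath and within the skin were set beside the muscle score. Of 12 adipocyte genes 10 were measured, with scores of 0.75, -0.56 and 0.44 in WT and 0.17, -0.23 and -0.56 in EKO, so that the 3 highest arrays were those of the muscle score. Their summed linear signal ran from 3647 to 11222 in WT and from 3305 to 6469 in EKO arrays. Plin4, which coats lipid droplets, read 8.72, 7.84 and 8.62 in WT and 7.98, 8.28 and 7.86 in EKO. Thrsp, an inducer of lipid synthesis, ran from 4.90 in EKO replicate 3 to 7.28 in WT replicate 1. Cidea and Pnpla2, of lipid storage and breakdown, had differences of -0.67 and -0.26, and 0 of the 10 passed. Thrsp had the same 3 highest arrays as the list, but Plin4, Cidea and Pnpla2 did not. For Cidea EKO replicate 1 was the lowest array at 9.83, beside 11.10 in EKO replicate 2. The 10 fibroblast genes had scores of 0.24, -0.28 and 0.37 in WT and 0.22, -0.31 and -0.24 in EKO, again with these 3 arrays the highest, and Dcn, decorin, had a difference of -0.90. The part of fat and connective tissue in the muscle values was not tested.

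The keratinocyte, cardiac, endothelial and nerve lists had other orders of the arrays, while smooth muscle and leukocyte genes had the same 3 highest arrays with smaller scores. The 9 keratinocyte genes had scores between -0.18 and 0.12, and the lowest was that of EKO replicate 1. Smooth muscle genes, 12 of 12 measured, had scores of 0.27, -0.37 and 0.07 in WT and 0.26, -0.19 and -0.04 in EKO. Among them Myh11, the smooth muscle myosin, had a difference of -0.79, while Cald1 and Actg2 had 0.90 and 1.09. Cardiac genes had scores between -0.21 and 0.14 with 2 of the 10 below the lower quartile on all arrays, and the differences were 0.89 for Tnnt2 and -0.75 for Nppb. Endothelial genes scored 0.40 in WT replicate 1 and from -0.22 to 0.04 elsewhere, with 6 of 10 lower and 4 higher in EKO mean, Cldn5 at a difference of -0.68 and Kdr at 0.42. The 7 measured nerve and Schwann cell genes scored 0.23 in WT replicate 1 and from -0.15 to 0.05 elsewhere, and the 10 leukocyte genes from -0.17 to 0.11. None of the genes of these lists passed over all genes. Fabp3, the fatty acid binding protein of heart and skeletal muscle, named after its values were seen, ran from 5.13 to 5.27, below every array's median (difference -0.02, SE 0.0817, limma adjusted p = 0.963).

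**Figure D4:**
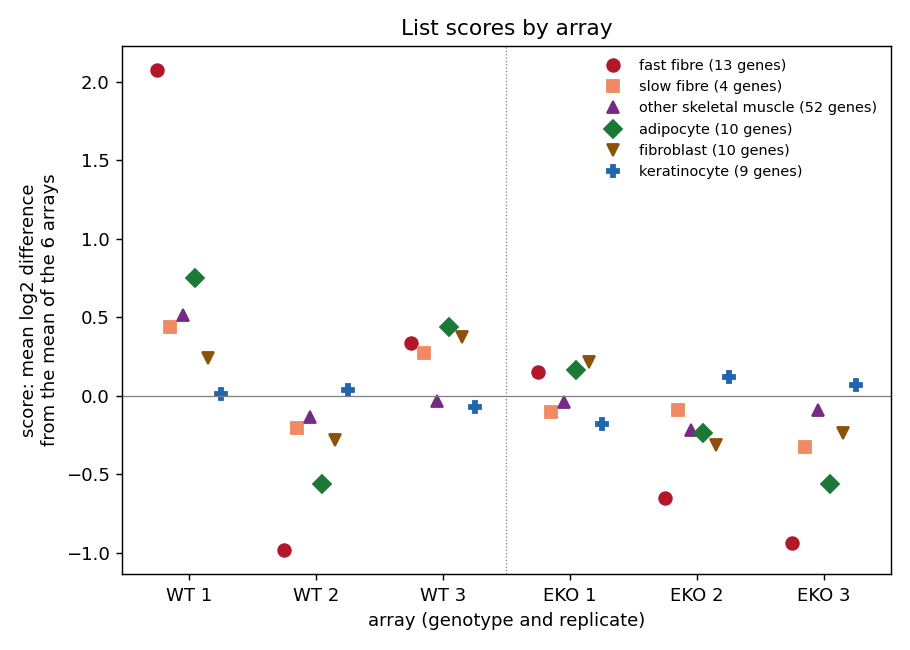
Score of each list (mean log2 difference from the mean of the 6 arrays) in each array. Fast fibre genes reach 2.08 in WT 1 and lie below -0.6 in WT 2, EKO 2 and EKO 3; adipocyte genes take a similar course with smaller size, and keratinocyte genes stay between -0.18 and 0.12.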

How the data were processed

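Each array held biotin-labelled cRNA of 1 sample, 3 WT and 3 EKO. The log2 values that the authors deposited were used unchanged; RMA and Partek 6.6 are named in the submitters' processing notes. Groups and replicate numbers come from the sample titles. The sources used here give no scan date or batch, so none was tested. Of 45101 probe sets, 64 controls were left out and 34945 had a unique gene symbol; 0 symbols changed on update through Entrez identifiers. No filter on low values was set.

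Differences of EKO minus WT were tested two-sided with lmFit and eBayes (limma 3.58.1, R 4.3.3), and p-values were adjusted by Benjamini-Hochberg over 18193 genes, with a threshold of 0.05; the procedure was tested on simulated data first. Scores carry no test. The muscle genes and the other lists were chosen with earlier results of these data known, so their direction is not independent evidence. Named were all muscle genes, up to 4 genes per other list by smallest unadjusted p and the 10 nearest profiles (predicted genes skipped); others are marked as named after seeing values. Promoter sequences are from RefSeq (GRCm38.p6). The number of arrays limits the precision.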

Additional observations from a re-analysis of the deposited data

How the results depend on the processing

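No muscle gene passed with limma under the alternatives run, which were the replicate block, only the upper 50% of genes by mean (12 of the 38 left), quantile normalization applied again, arrays centred on their medians, trended and robust variances, weighted arrays, averaged probe sets of a gene, each array left out, and a threshold of 0.1 (smallest adjusted p 0.560). Deviations from the group means were correlated over all genes, giving -0.07, -0.09 and -0.34 for the same-numbered WT and EKO samples. Differently numbered samples gave from -0.19 to 0.26. No pairing was read from these values, but with 3 arrays per group they cannot exclude it. With the replicate block 1 gene passed over all genes, as without it, and the score difference was -0.79.

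Of 468 differences of single muscle genes, 456 kept their sign and 12 changed it, and the cause was not tested. The replicate block, the upper 50% filter and the trended and robust variances leave each gene's difference unchanged. Their values could not change sign and count among the 456. Of the 12 changes, 7 came without WT replicate 1, and the others with weighted arrays or another array left out. With 1 array left out the difference ran from -0.7515 (without WT replicate 2, as for the other low ends here) to 0.41 for Myh1, from -1.5076 to 0.0007 for Myh2, from -1.308 to 0.17 for Ttn, from -0.7763 to 0.24 for Pgam2, from -1.2545 to 0.0251 for Mybpc2, from -0.7448 to 0.0552 for Ldb3, from -1.6657 to 0.0048 for Sln and from -0.2413 to 0.23 for Tnni1. The high ends are those without WT replicate 1, except for Tnni1, where WT replicate 3 was left out. Without EKO replicate 3 Myh1 had 0.21 and Tnni1 0.10, and with weighted arrays 0.0406 and 0.0604. The score difference ran from -1.34 to -0.15, the fast minus slow difference from -1.16 to 0.0485, positive only without WT replicate 1, and the count of lower EKO means (added after seeing the data) from 31 to 38. The fast minus slow difference was -0.94 with troponins only, where Tnnt1 and Tnnc1 are not shown to be above background. In the upper 50% of genes it was -0.16, but Mybpc1 (-0.88) was the only slow gene left there. That value therefore compares the fast genes with a single gene that fast fibres also make. The genes past the threshold numbered from 1 to 42, with 2 without WT replicate 2 and 42 without EKO replicate 2, and 0 of them were muscle genes.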
